A study of Homo sapiens with 6 samples.

Results

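The genes described here are the protein-coding genes of chromosome 19 whose symbol is ZNF followed by a number and whose mean level over all libraries reached 1 FPKM (fragments per kilobase of transcript scaled to library size). The file listed 239 protein-coding ZNF genes of chromosome 19 among 32985 genes. Of these, 98 reached the minimum and 141 did not, and the 98 were part of the 11725 genes that entered the test. The genes were measured by poly(A) RNA-seq in 8505C cells, an established line of anaplastic thyroid cancer, 24 h after transfection. The control group, siCtrl, received a control siRNA and the knockdown group, siNUF2, received an siRNA against NUF2, a kinetochore protein of the NDC80 complex, with 3 libraries in each group. The siCtrl cells carried the genotype label WT and the siNUF2 cells the label NUF2 knockdown. The knockdown was made by siRNA transfection of 1 cell line, and the study's methods give 1 siRNA sequence for NUF2.

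Chromosome 19 holds the densest clusters of zinc finger genes in the human genome, which arose by repeated tandem duplication. Most encode a row of C2H2 fingers that reads DNA and a KRAB domain near the start of the protein. The KRAB domain recruits the corepressor TRIM28, which brings the histone methyltransferase SETDB1 and HP1 proteins to the bound site, and many of these factors silence retroelements.

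The label KRAB-type was checked on the encoded proteins, using the coding sequences of GENCODE release 44. A strict pattern for the core of the KRAB A box matched the canonical protein of 57 of the 98 genes, and a looser pattern, chosen after the strict one was seen to miss known KRAB genes, matched 69 in at least 1 isoform. The other 29 had no match, among them ZNF146, ZNF358, ZNF428, ZNF580, ZNF787, ZNF30 and ZNF473. A missing match does not show that the domain is absent, as the looser pattern may miss KRAB genes too. The genes are therefore called chromosome 19 ZNF genes. Their proteins held 1 to 26 C2H2 fingers by pattern, and 66 of them held 10 or more.

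The siRNA against NUF2 has a seed, positions 2 to 8 of its guide strand, whose opposite word in an mRNA is TATGGAA. The stretches below hold that word in capitals and are shown because they lie in the genes past the threshold that carry it, and in ZNF766, which carries it and was higher in siNUF2. ZNF146 and ZNF614 were the lower genes past the threshold, and ZNF30 was lower past it only when libraries were paired by replicate number. All are written in the sense of the mRNA, with 10 bases on each side, from GENCODE release 44 on GRCh38.
ZNF146: aaaacagaaaTATGGAAaagctatgta
ZNF614: gtgccgtgacTATGGAAatgccttttg
ZNF30, first word: atgtcaggaaTATGGAAagaccctttg
ZNF30, second word: ttttctagtaTATGGAAagcttacccg
ZNF766, first word: gatacagtaaTATGGAAaataggacaa
ZNF766, second word: ttccaaaagcTATGGAAatgtcatttt

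The word in ZNF146 lies at chr19:36237919-36237925 on the plus strand, in the 3′ UTR. The word in ZNF614 lies at chr19:52015798-52015804 on the minus strand, in the 3′ UTR. The words in ZNF30, at chr19:34943339-34943345 and chr19:34943696-34943702 on the plus strand, are in the coding sequence of the canonical transcript and in the 3′ UTR of another isoform. The words in ZNF766, at chr19:52294130-52294136 and chr19:52295015-52295021 on the plus strand, are in the 3′ UTR. ZNF845, ZNF227, ZNF45 and ZNF530 held no such word in the coding sequence or the 3′ UTR.

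The total count per library lay between 61257859 and 69755291. The targeted gene followed the labels: NUF2 was at 14.8, 14.5 and 12.2 FPKM in the siCtrl libraries and at 1.53, 2.05 and 1.56 FPKM in the siNUF2 libraries. Its mean fell to 12.4% of control, with a log2 fold change of -2.99 (SE 0.17, n = 3 per group, adjusted p = 0.00051 by the quasi-likelihood test of edgeR, Benjamini-Hochberg adjusted). The exact two-sided permutation test of the 6 FPKM values gave p = 0.1, the smallest this design allows. Of the thyrocyte markers, NKX2-1 was at 18.3 FPKM, while PAX8 was at 0.551, SLC5A5 at 0.0058 and FOXE1 at 0.017 FPKM, so 3 of these 4 defining markers of thyroid follicular cells were under 1 FPKM. None of the 9 epithelial, mesenchymal, immune, endothelial and thyrocyte markers tested passed the threshold by edgeR or DESeq2, and 0 had an unadjusted p under 0.05 by edgeR. In bulk RNA, fewer cells of a kind and less RNA per cell cannot be told apart.

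The chromosome 19 ZNF genes were weakly expressed. Their median level was 1.80 FPKM, against 6.002 FPKM over all genes tested and 2.75 FPKM over the 157 ZNF genes tested on other chromosomes. Of the 98, 77 were under 3 FPKM and 11 reached 5 FPKM. Together they took 0.141% to 0.165% of the counts of a library, and the ranges of the siCtrl libraries (0.145% to 0.165%) and siNUF2 libraries (0.141% to 0.1504%) overlapped.

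The highest level belonged to ZNF146, which encodes a protein made almost wholly of zinc fingers. ZNF428 followed with a mean of 13.4 FPKM, ZNF358 with 13.1, ZNF580 with 12.2 and ZNF787 with 10.2. None of these 5 matched the looser KRAB pattern. The 69 genes that did match had a median of 1.602 FPKM, and the 29 without a match had a median of 3.29 FPKM.

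The levels of ZNF428 were 15.1, 12.6 and 15.6 FPKM in siCtrl and 10.0, 13.9 and 13.4 FPKM in siNUF2. ZNF787 was at 9.22, 9.70 and 8.9995 FPKM in siCtrl and at 12.01, 10.7 and 10.7 FPKM in siNUF2. The groups of ZNF428 overlapped and those of ZNF787 did not, but ZNF787 missed the threshold (log2 fold change 0.28, SE 0.10, adjusted p = 0.207 by edgeR's quasi-likelihood test).

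At the lower edge of the set, ZNF844 had a mean of 1.00 FPKM and ZNF283 of 1.01 FPKM, while ZNF17 with 0.999 and ZNF229 with 0.995 FPKM fell just below it. The 141 genes below the minimum had a median of 0.408 FPKM. In a fit with no filter, 0 of them passed the threshold by edgeR, beside 0.57% of all genes in that fit. An unadjusted p under 0.05 was found for 11 of them, with more higher than lower. In 86 of the 98 genes both group means reached 1 FPKM. The mean was under 1 FPKM in siNUF2 alone for 10 genes and in siCtrl alone for 2, so these 12 entered through the group in which they were higher, ZNF845, ZNF766, ZNF614 and ZNF530 among them.

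After NUF2 knockdown, 4 of the 98 chromosome 19 ZNF genes changed. ZNF845 and ZNF227 were higher, and ZNF146 and ZNF614 were lower. The share of all genes tested that passed the same threshold, an adjusted p under 0.05, was 3.99%, with 1.53% higher and 2.46% lower. The count of chromosome 19 ZNF genes is thus near the background.

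ZNF845, which encodes 26 fingers and a KRAB-like stretch, was at 0.719, 0.759 and 0.514 FPKM in siCtrl and at 2.10, 1.76 and 1.54 FPKM in siNUF2. All siNUF2 libraries lay above all siCtrl libraries. Its means were 0.664 ± 0.131 and 1.80 ± 0.283 FPKM (SD, n = 3), and its log2 fold change was 1.46 (SE 0.22, adjusted p = 0.0131 by the quasi-likelihood test of edgeR, Benjamini-Hochberg adjusted).

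ZNF227, with 18 fingers and a match to the looser KRAB pattern, was at 1.38, 2.34 and 1.56 FPKM in siCtrl and at 3.45, 3.99 and 3.35 FPKM in siNUF2. The groups did not overlap. Its log2 fold change was 1.05 (SE 0.22, adjusted p = 0.0403 by the same test). It overlaps ZNF235 on the other strand over 8540 bases, and ZNF235 had a mean of 0.660 FPKM. Whether the counting used strand is not given in the sources used here, so reads of the shared stretch cannot be assigned.

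ZNF146, with 10 fingers and no KRAB match, was at 27.1, 31.2 and 23.5 FPKM in siCtrl and at 14.9, 15.2 and 14.97 FPKM in siNUF2. The 3 siNUF2 libraries lay close together and below every siCtrl library. Its mean was 55.0% of control, with a log2 fold change of -0.84 (SE 0.12, adjusted p = 0.00947 by edgeR's quasi-likelihood test). It overlaps ZNF565 on the other strand over 480 bases, and ZNF565 had a mean of 0.287 FPKM.

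ZNF614, a KRAB gene with 11 fingers, was at 1.61, 1.91 and 1.52 FPKM in siCtrl and at 0.954, 0.751 and 0.713 FPKM in siNUF2. The groups did not overlap, and the siNUF2 mean was 48.0% of control. Its log2 fold change was -1.04 (SE 0.20, adjusted p = 0.0309 by edgeR's quasi-likelihood test). It was the only one of the 98 whose siNUF2 mean was under 50% of control. Its own mean reached 1 FPKM only in siCtrl (1.68, against 0.806 in siNUF2), and ZNF genes below the minimum are outside this count.

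**Figure D1:**
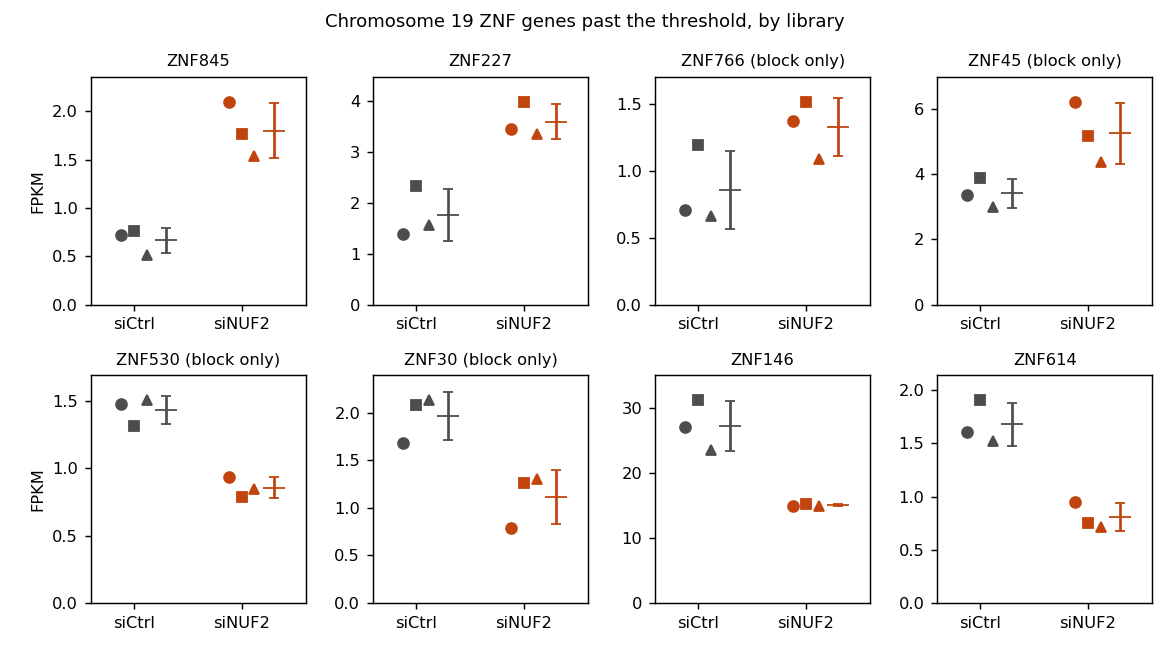
FPKM of 8 chromosome 19 ZNF genes in each library (circle, square and triangle are replicates 1, 2 and 3), with bars for the mean ± SD of 3 libraries and each vertical axis starting at 0. ZNF845 and ZNF227 were higher and ZNF146 and ZNF614 lower at an adjusted p under 0.05, and the 4 panels marked block only passed when libraries were paired by replicate number.

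Over all genes tested, deviations from the group means correlated positively between libraries of the same replicate number, so the test was also run with that number as a block. Over the 98 genes alone these correlations were -0.04, -0.04 and 0.16, so a pairing gene by gene was not seen in them. Such a correlation does not measure a shift that the 98 genes share. Their median deviation was 0.10 in siCtrl replicate 2 and 0.08 in siNUF2 replicate 2, and between -0.05 and 0.01 in the other libraries. With the block, 8 of the 98 passed the threshold, 4 higher and 4 lower, against 14.5% of all genes tested. The 4 above remained among them. ZNF45 was added at a log2 fold change of 0.64 (adjusted p = 0.0193 by edgeR with the block), ZNF530 at -0.72 (adjusted p = 0.0268), ZNF30 at -0.82 (adjusted p = 0.0296) and ZNF766, named after its values were seen, at 0.69 (adjusted p = 0.0354).

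ZNF45 was at 3.35, 3.87 and 2.99 FPKM in siCtrl and at 6.22, 5.17 and 4.36 FPKM in siNUF2. ZNF530 was at 1.48, 1.31 and 1.51 FPKM in siCtrl and at 0.935, 0.783 and 0.849 FPKM in siNUF2. The groups of both genes did not overlap. ZNF30 was at 1.68, 2.09 and 2.14 FPKM in siCtrl and at 0.789, 1.26 and 1.30 FPKM in siNUF2, also without overlap. ZNF766 was at 0.710, 1.20 and 0.665 FPKM in siCtrl and at 1.38, 1.52 and 1.09 FPKM in siNUF2, and its groups overlapped.

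The calls rest on few libraries. Leaving out 1 library gave 2 calls without siCtrl replicate 1, 3 without siCtrl replicate 2, 2 without siCtrl replicate 3, and 2 without siNUF2 replicate 2 or siNUF2 replicate 3. Without siNUF2 replicate 1, edgeR called 0 of the 98, with 14 at an unadjusted p under 0.05, and ZNF146 and ZNF845 then had adjusted p = 0.0540 and adjusted p = 0.0615. Calls over all genes fell at the same time from 468 to between 124 and 251. ZNF146 and ZNF845 passed in 5 of the 6 fits that left out a library, ZNF227 in 1 and ZNF614 in 0.

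As a set, the 98 genes were balanced in direction. Their median log2 fold change was 0.00, beside 0.01 over all genes tested, with 49 values above and 49 below 0. An unadjusted p under 0.05 was found for 23 genes, 10 higher and 13 lower, beside 18.2% of all genes tested. The groups did not overlap in FPKM for 35 genes, 15 higher and 20 lower, beside 23.9% of all genes tested.

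The changes were spread more widely than over all genes, with quartiles of -0.31 and 0.18 on the log2 scale beside -0.17 and 0.17. An absolute log2 fold change over 0.5 was seen in 20 of the 98 (20.4%), beside 11.5% of all genes tested. Genes of 1 to 5 FPKM lay between, with quartiles of -0.24 and 0.17 and 16.2% over 0.5. ZNF genes on other chromosomes had quartiles of -0.18 and 0.23 and 10.2% over 0.5. The 98 include genes that reached the FPKM minimum through the group in which they were higher, 10 through siCtrl and 2 through siNUF2. How far this filter widens the spread was not tested. The median SD of log2 CPM within groups was 0.212 for the 98 genes, 0.180 for all genes and 0.233 for genes of 1 to 5 FPKM.

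Among genes whose groups did not overlap, the largest rises after ZNF845, ZNF227 and ZNF45 were those of ZNF77 (log2 fold change 0.55, SE 0.26), ZNF317 (0.52, SE 0.21) and ZNF649 (0.47, SE 0.21). None passed the threshold. Besides ZNF614 and ZNF146, the largest falls were those of ZNF324, ZNF30, ZNF530 and ZNF14 (-0.56, SE 0.24).

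ZNF324 had a log2 fold change of -0.98 with an SE of 0.66. Its FPKM were 1.65, 1.98 and 1.77 in siCtrl and 1.20, 0.129 and 1.38 in siNUF2. The value of siNUF2 replicate 2 stood far below the others, and without a library the log2 fold change ranged from -1.43 to -0.47. ZNF324 shares 6.34% of its 100-base words with genes elsewhere, so its counts are uncertain.

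Of 16 zinc finger genes with a described role, fixed as a list, 5 reached 1 FPKM, and ZNF146 was the only one past the threshold. ZNF420, which encodes a repressor of p53 activity, was at 1.37, 2.14 and 1.54 FPKM in siCtrl and at 1.27, 1.18 and 1.10 FPKM in siNUF2 (log2 fold change -0.49, SE 0.22). The imprinted gene ZNF331 was at 2.16, 2.27 and 2.5004 FPKM in siCtrl and at 2.23, 2.65 and 2.09 FPKM in siNUF2 (0.03, SE 0.14). The 2 groups of ZNF331 overlapped. ZNF224 had a log2 fold change of -0.16 (SE 0.15). ZNF91 and ZNF93, which silence SVA and LINE-1 elements, were at means of 0.529 and 0.242 FPKM and were not in the main test. In the fit with no filter their log2 fold changes were 0.67 and 0.22 (adjusted p = 0.585 and adjusted p = 0.868 by edgeR).

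ZNF274, named after its values were seen, brings SETDB1 to the 3′ ends of zinc finger genes. It was at 2.40, 2.74 and 2.62 FPKM in siCtrl and at 2.12, 1.84 and 1.69 FPKM in siNUF2. The groups did not overlap, but the gene missed the threshold (log2 fold change -0.44, SE 0.14, adjusted p = 0.143 by edgeR's quasi-likelihood test).

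Along the chromosome, a gap of more than 1 Mb between neighbouring genes divided the 98 into 14 position groups. In the group from ZNF146 to ZNF569, chr19:36214602-37469275 on GRCh38, all 6 genes had a negative log2 fold change, with a median of -0.51. Besides ZNF146, these were ZNF569 (-0.56, SE 0.20), ZNF260 (-0.52, SE 0.18), ZNF420 (-0.49, SE 0.22), ZNF529 (-0.24, SE 0.18) and ZNF875 (-0.15, SE 0.20). Only ZNF146 passed the threshold. Of the 15 ZNF genes of the same interval under 1 FPKM, 12 were negative in the fit with no filter, with a median of -0.33. Some of them overlap a gene of the group, ZNF565 among them. In the other position groups, such weakly expressed genes were negative at varying shares. They were negative for 11 of 14 in the group from ZNF653 to ZNF791 and 18 of 27 from ZNF628 to ZNF446. The counts were 15 of 26 from ZNF175 to ZNF331 and 5 of 10 from ZNF576 to ZNF296. They were 3 of 4 from ZNF557 to ZNF562 and 0 of 2 from ZNF302 to ZNF30. Weakly expressed ZNF genes that lie between the position groups are in none of these counts. The interval from ZNF146 to ZNF569 was singled out after its values were seen and was not tested.

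ZNF845 and ZNF614, which changed in opposite directions, lie in the same position group, from ZNF175 to ZNF331, where 8 of 12 genes were positive. ZNF227 and ZNF45 lie in the group from ZNF576 to ZNF296, where 6 of 13 were positive. Across all 58 pairs of neighbours under 100000 bases apart, 35 (60.3%) had the same sign, and the median absolute difference of their log2 fold changes was 0.33.

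**Figure D2:**
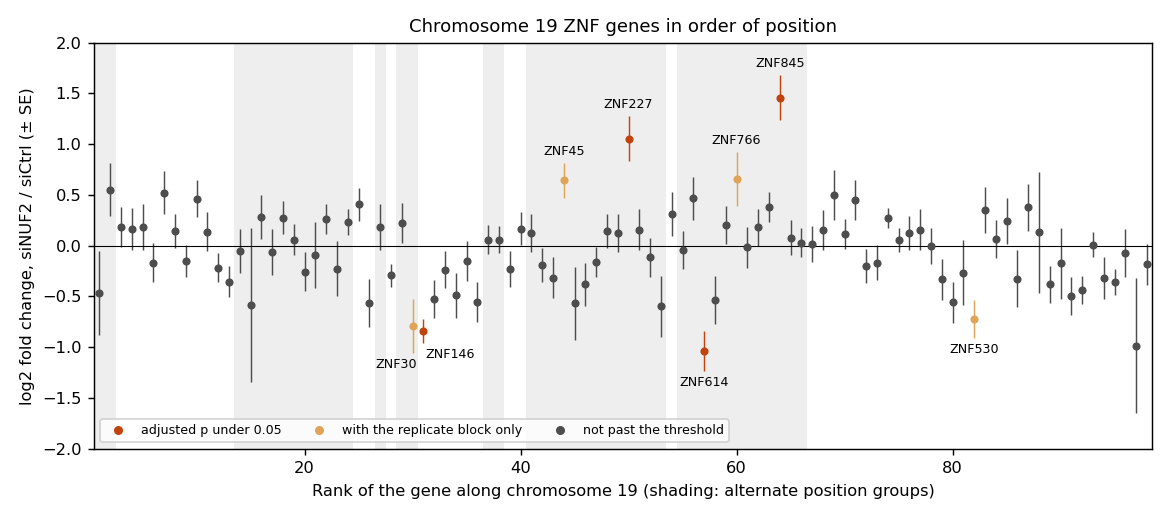
Log2 fold change (siNUF2 over siCtrl, ± SE) of the 98 chromosome 19 ZNF genes by their rank along the chromosome, with alternate position groups shaded. The run of 6 genes that starts at ZNF146 lies below 0, while ZNF845 and ZNF614 lie on opposite sides within 1 position group.

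The seed word TATGGAA, searched on the sense strand, was present in the longest 3′ UTR of 25 of the 98 genes (25.5%). It was present in 16.1% of the 10173 genes tested with a 3′ UTR. Among the 156 ZNF genes on other chromosomes with a 3′ UTR, the share was 22.4%. The 3′ UTRs of the chromosome 19 ZNF genes had a median of 1936.5 bases, beside 1503 over all genes and 1919 over ZNF genes on other chromosomes. Both lower genes past the threshold held the word and neither of the higher ones did. Over all genes tested, 289 passed lower and 179 higher, among them 167 and 18 with the word in the 3′ UTR. Of the 25 genes with the word, 14 (56.0%) had a negative log2 fold change, with a median of -0.07. Over all genes with the word, 65.4% were negative, with a median of -0.10. Of the 35 ZNF genes on other chromosomes with the word, 13 (37.1%) were negative, with a median of 0.05.

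Of the 8 genes with 2 or more words, 6 were negative, with a median of -0.25. The exceptions were ZNF766 (0.66, SE 0.27) and ZNF473 (0.31, SE 0.22), both named after their values were seen. The 17 genes with 1 word had a median of 0.01, and 8 of them were negative. The 34 genes with only its 6-base core, ATGGAA, had a median of 0.04, and 16 were negative. The 39 genes with neither the word nor the core had a median of 0.02, and 19 (48.7%) were negative. On other chromosomes, 0 of the 5 ZNF genes with 2 or more words were negative. The words in ZNF30, ZNF544 and ZNF627, 4 in all, are in a 3′ UTR only outside the canonical transcript, where they are coding. A match is a description of the sequence, and its part in the falls was not tested.

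**Figure D3:**
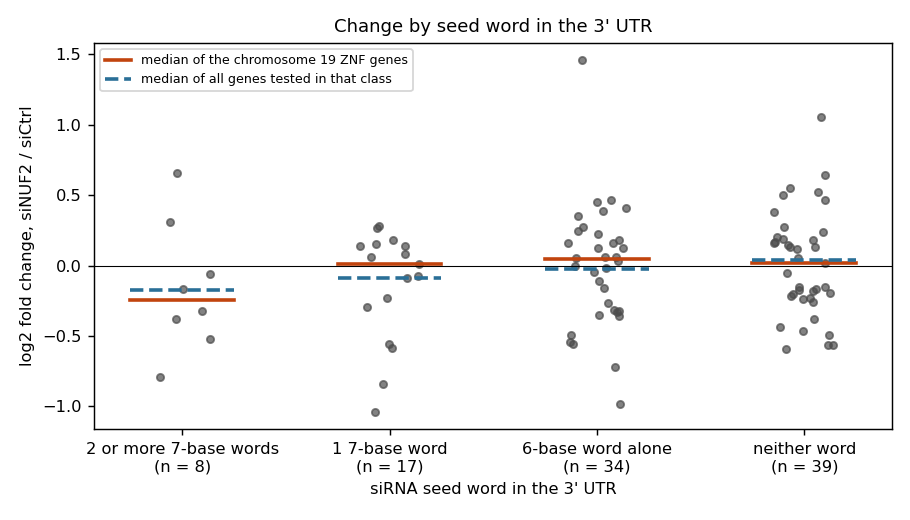
Log2 fold change of the 98 chromosome 19 ZNF genes (points) by the seed words in the longest 3′ UTR, with the median of these genes (solid line) and of all genes tested in that class (dashed line). The 8 genes with 2 or more words have a median of -0.25, and the 17 genes with 1 word have a median of 0.01. The 34 genes with the 6-base word alone have a median of 0.04, and the 39 genes with neither word have a median of 0.02.

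The partners that KRAB proteins recruit were read from a list of 29 genes, of which 28 were tested. CBX5 fell, HDAC1 rose, and 26 did not pass the threshold, beside the 3.99% of all genes tested that passed. The median log2 fold change was 0.19 over the list and 0.01 over all genes tested. TRIM28, the corepressor that KRAB domains bind, was at 104, 88.2 and 98.1 FPKM in siCtrl and at 97.5, 91.9 and 92.2 FPKM in siNUF2 (log2 fold change -0.02, SE 0.09). Its groups overlapped. SETDB1, the methyltransferase that TRIM28 brings, had a log2 fold change of 0.23 (SE 0.13).

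CBX5, which encodes HP1 alpha, was at 7.10, 6.43 and 6.30 FPKM in siCtrl and at 2.61, 3.66 and 3.49 FPKM in siNUF2. Its log2 fold change was -1.002 (SE 0.14, adjusted p = 0.0105 by edgeR's quasi-likelihood test). The other HP1 genes, CBX1 (-0.25, SE 0.11) and CBX3 (-0.18, SE 0.09), missed the threshold.

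HDAC1, a histone deacetylase of the NuRD complex, was at 26.0, 26.8 and 25.8 FPKM in siCtrl and at 37.0, 42.1 and 37.1 FPKM in siNUF2 (log2 fold change 0.59, SE 0.09, adjusted p = 0.0163 by edgeR's quasi-likelihood test). The groups did not overlap in HDAC1 or in CBX5. The seed word was present at 1 place in the 3′ UTR of CBX5 and not in that of HDAC1, and its part was not tested.

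With the replicate block, 9 of the 28 passed, beside 14.5% of all genes tested. Beside CBX5 and HDAC1, MTA1 (0.41), SUMO2 (0.35), TASOR (0.31) and RBBP7 (0.25) were higher, and MORC2 (-0.32), MTA2 (-0.30) and HDAC2 (-0.24) were lower on the log2 scale of that fit. HDAC1 missed the threshold when siCtrl replicate 1, siCtrl replicate 2, siCtrl replicate 3 or siNUF2 replicate 1 was left out, with adjusted p between 0.0522 and 0.0716 by edgeR's quasi-likelihood test.

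**Figure D4:**
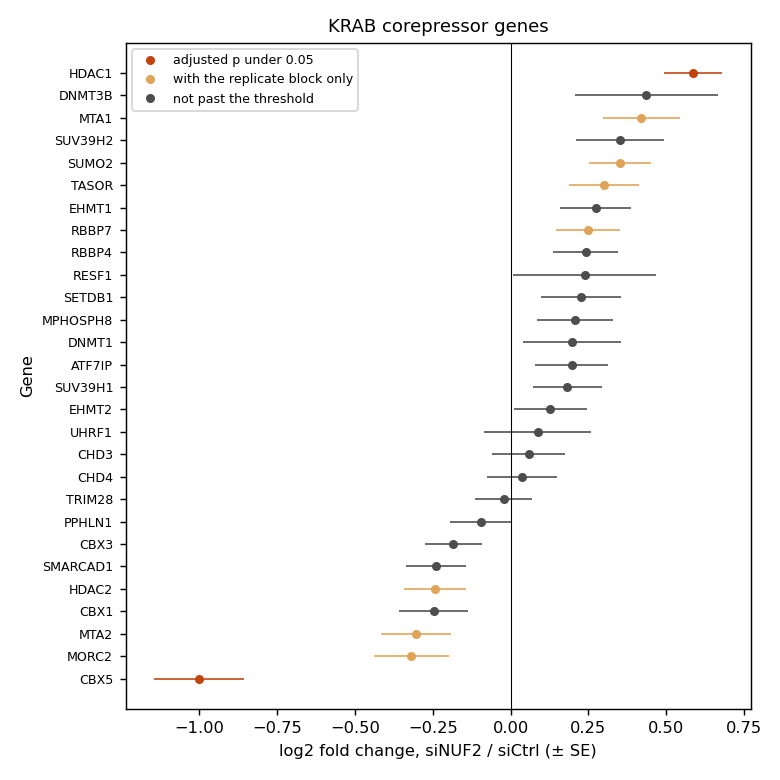
Log2 fold change (siNUF2 over siCtrl, ± SE) of the 28 KRAB corepressor genes tested, ordered by value. CBX5 (-1.002) stands at the lower end and HDAC1 (0.59) at the upper end, and TRIM28 (-0.02) lies at 0 within its SE.

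ZNF genes of other chromosomes were the nearest group to compare with. Of the 157 tested, 5 (3.18%) passed the threshold, all higher, beside 3.99% of all genes tested, and the median log2 fold change of the 157 was 0.03. With the replicate block, 18 (11.5%) passed, 13 higher and 5 lower, beside 14.5% of all genes tested. The difference between these genes and those of chromosome 19 was not tested.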

How the data were processed

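Poly(A) RNA-seq of 8505C cells (3 siCtrl and 3 siNUF2 libraries, paired-end reads of 150 bases) was analysed. Per the labels, the authors used fastp, HISAT2 with GRCh38, and StringTie, with no versions, annotation release or strand setting given in the sources used here. The authors deposited FPKM, scaled by transcript length and library size. The deposited counts are whole numbers per gene without normalization, and the tool that made them is not given in the sources used here.

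Groups and replicate numbers came from the labels. Nothing says that the libraries came from separate cultures, so p-values measure the spread between these libraries, which may be technical. Genes whose mean FPKM reached 1 were tested with edgeR 4.0.16 (TMM, quasi-likelihood F-test, Benjamini-Hochberg over 11725 genes, threshold 0.05). Alternatives were DESeq2 1.42.0, limma 3.58.1 on log2(FPKM + pseudocount), other filters and scalings, a replicate block and leaving out each library, in R 4.3.3. Tables used Python 3.11.15. The test was checked on simulated counts.

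Whether numbers pair the libraries was checked by correlating deviations from the group means across genes. Same-numbered libraries had correlations from 0.344 to 0.446, so the numbers were taken to pair them. Others had correlations from -0.263 to -0.141, which is not separate evidence, because deviations cancel within a group. The labels do not say what a number shares. Over the 98 genes alone, same-numbered libraries had correlations of -0.04, -0.04 and 0.16. Replicates differed by far more than sampling noise.

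KRAB-like stretches, C2H2 fingers and seed words came from GENCODE release 44, with the longest 3′ UTR of at least 50 bases per gene. The siRNA sequence is given in the study's methods. Of the 98 genes, 54 overlap another listed gene and 6 share over 1% of their 100-base words with genes elsewhere, so their counts are less certain.

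The genes and lists were chosen with earlier results of these data known. Genes named were those past the threshold, the 6 largest rises and 6 largest falls without overlap of groups, the 5 highest levels, those nearest the FPKM minimum, the genes of both fixed lists, and NUF2. Outside this rule, ZNF274, ZNF473, ZNF766, ZNF544, ZNF627, ZNF569, ZNF260, ZNF529 and ZNF875 were named after their values were seen, and ZNF235 and ZNF565 because they overlap a named gene. A few genes of the lists are not reported here, and the counts leave them out.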

Additional observations from a re-analysis of the deposited data

How the results depend on the processing

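The count of 4 chromosome 19 ZNF genes past the threshold became 2 with no filter, 1 at a mean FPKM of 5 (11 of the genes tested), 8 with the replicate block, and 0 to 3 when 1 library was left out. It was 2 among genes that overlap no other gene and 2 among those with a strict KRAB-like stretch. The count of 5 for ZNF genes on other chromosomes became 1 with no filter, 1 at a mean FPKM of 5, 13 by DESeq2, 3 by limma with either pseudocount, 18 with the replicate block, and 1 to 3 when 1 library was left out. The count of 2 for KRAB corepressor genes became 1 at a mean FPKM of 5, where CBX5 was not tested, 4 by DESeq2, 9 with the replicate block, and 1 to 2 when 1 library was left out. The median log2 fold change of 0.00 became 0.12 at a mean FPKM of 5, -0.018 with library totals, -0.017 and -0.028 by limma with a pseudocount of 1 and 0.1, -0.011 with the replicate block, -0.043 to 0.048 when 1 library was left out, 0.093 without overlapping genes and -0.044 with a strict KRAB-like stretch. A looser KRAB pattern, added after seeing the data, gave 3 calls of 69 genes. DESeq2 called 6 of the 98, adding ZNF45 and ZNF530, and 8.29% of all genes tested. ZNF614 missed the threshold with no filter, by limma with either pseudocount and in each fit that left out a library. ZNF227 missed it with no filter and in 5 of those 6 fits. No sign of a called gene turned under any alternative run. Beyond the smaller sets and fewer libraries, the cause of these moves was not tested. With 3 libraries per group and a median of 1.80 FPKM, changes of the size of the median SE, 0.19 on the log2 scale, were not detectable. Larger changes could be missed too. The smallest absolute log2 fold change among the 4 genes past the threshold was 0.84, and ZNF45 at 0.64 missed it in the main fit.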
